A study of Rattus norvegicus with 18 samples.

Results

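Rat heart miRNAs made outside the usual biogenesis route were described in 18 small RNA libraries. Members were chosen by name, as every listed row that is miR-320, miR-484, miR-1839, miR-877 or miR-1224 once the species prefix and the arm suffix are removed. This gave 7 of 599 listed rows: miR-1839-5p, miR-1839-3p, miR-484, miR-320-3p, miR-320-5p, miR-877 and miR-1224. The libraries came from whole heart tissue of 3 groups of 6. The QDG group was spontaneously hypertensive rats (SHR) that received a treatment named QDG, the SHR group was the same hypertensive strain without it, and the WKY group was Wistar Kyoto rats, given as normal. By the design text, SHR were given NS or QDG; the meaning of these letters was not given in the sources used here, nor were age, sex, dose and duration. SHR and WKY differ in strain, in blood pressure and possibly in what they received, and these cannot be told apart. No label ties each library to its own rat, and where libraries share one, a p-value reflects variation among libraries only, some of it possibly technical.

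Most miRNAs are cut from a long nuclear transcript by Drosha with its partner DGCR8, and the released hairpin is then cut by Dicer into a 5p and a 3p arm. The members described here skip the Drosha step. miR-320 and miR-484 are capped hairpins, whose 5′ end is the start of transcription itself. miR-877 and miR-1224 are mirtrons, short introns that splicing and debranching turn into a hairpin. miR-1839 comes from a small Cajal body RNA, a relative of the small nucleolar RNAs that guide the modification of other RNAs. In heart biology, miR-320 is best known from ischaemia and reperfusion injury in mice, and miR-484 from its repression of the mitochondrial fission protein Fis1 in rodent cardiomyocytes.

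The mature sequences are shown because the seed, bases 2 to 8 and here in capitals, sets which messages a miRNA can pair with. RefSeq (GRCr8) held 5 of the 7 members, of 20 to 22 bases, and they are written 5′ to 3′. miR-320-3p and miR-320-5p are named only.
miR-1839-5p: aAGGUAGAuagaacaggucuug
miR-1839-3p: aGACCUACuuaucuaccaacag
miR-484: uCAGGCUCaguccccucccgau
miR-877: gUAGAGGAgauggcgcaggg
miR-1224: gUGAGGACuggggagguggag
No pair of these members shared a seed. Among the 693 mature miRNAs of the table, the seed of miR-484 occurred in miR-344a-5p and miR-344-5p. These lie at separate sites on chromosome 1, and miR-344 is described as capped. The seeds of the other 4 members occurred in no other miRNA. The GC content was 66.7% in miR-1224, 65.0% in miR-877 and 63.6% in miR-484, against 40.9% in each arm of miR-1839 and a median of 47.8% over the table.

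The hairpins show how each class is built. In the mirtrons the capitals mark the first and last pairs of bases, GU and AG, which are the ends of a spliced intron. In the other 2 hairpins the capitals mark the mature arms.
Mir877: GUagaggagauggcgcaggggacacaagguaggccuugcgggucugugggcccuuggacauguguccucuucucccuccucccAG
Mir1224: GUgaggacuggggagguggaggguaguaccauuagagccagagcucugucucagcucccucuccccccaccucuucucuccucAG
Mir484: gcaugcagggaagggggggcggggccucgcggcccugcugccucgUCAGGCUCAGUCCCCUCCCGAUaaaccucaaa
Scarna15: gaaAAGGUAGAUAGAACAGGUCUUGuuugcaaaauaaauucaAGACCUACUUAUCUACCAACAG
Read on the transcribed strand, 4 of 419 hairpins in the table (0.955%) both began with GU and ended with AG, namely Mir877, Mir1224, Mir678 and Mir3595. Mir877 lies within the gene Abcf1 at chr20:2816284-2816368 on the plus strand, and Mir1224 within Vwa5b2 at chr11:93811291-93811375 on the minus strand. Mir484 lies between the protein genes Nde1 and Marf1 at chr10:1394905-1394981 on the minus strand, and the gene of miR-320 between Polr3d and Phyhip. RefSeq lists the miR-1839 hairpin as Scarna15, with Mir1839 as a synonym, at chr1:144893856-144893919 on the plus strand. Its arms pair over a run of 8 bases without a gap, bases 3 to 10 of the 5p arm. All coordinates are of GRCr8, with the build behind the deposited values not given in the sources used here.

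Values are the authors' normalized reads per 1000000 (RPM). Summed over the listed rows, they correspond to 6420666 to 10169581 reads per library, and 3 reads equal 0.405 to 0.674 RPM. The divisors behind RPM were smaller, at 4449279 to 7403775 reads. Whether a read could count in more than 1 row was not given in the sources used here. The rows miR-466b-2-3p and miR-466b-4-3p had identical results in QDG against SHR (log2 fold change -0.130, SE 0.201). The sums over rows may therefore count a read more than once. Tests covered the 410 of 599 miRNAs that reached 1 RPM in 6 or more libraries. Over these, limma with Benjamini-Hochberg adjustment called 95 miRNAs in SHR against WKY (33 higher, 62 lower) and 73 in QDG against WKY (30 higher, 43 lower) at an adjusted p under 0.05. The share of calls that were higher, 34.7% and 41.1%, depended on the scaling. It was 49.5% and 51.2% with relative log expression scaling, and 53.3% and 65.0% with upper quartile scaling. In principal components of the tested miRNAs, SHR replicate 5 stood apart on the second component (score 7.58, the next library 3.397) and WKY replicate 1 on the third (score -6.25, the next -1.996), so results are also given without both. The heart muscle markers miR-1-3p, miR-133a-3p, miR-208a-3p and miR-499-5p were present in every library. They summed to 156118 to 203221 RPM in QDG libraries, 173318 to 199213 in SHR libraries and 136912 to 164215 in WKY libraries.

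Of the 7 members, 5 passed the filter. Averaged over the 18 libraries, miR-320-3p had 388 RPM and ranked 97th of the 599 rows, miR-1839-5p had 297 RPM and ranked 108th, miR-484 had 16.03 RPM, miR-1839-3p 10.1 RPM and miR-877 2.03 RPM. Mature miRNAs are of nearly the same length throughout, so no length correction was made. miR-320-5p, with 9 reads in all, and miR-1224, with 7 reads in all, did not pass. The 7 rows together held 0.0480 ± 0.00442% of the reads summed over rows in QDG libraries, 0.0502 ± 0.00372% in SHR libraries and 0.0527 ± 0.00332% in WKY libraries (SD, n = 6 each).

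**Figure D1:**
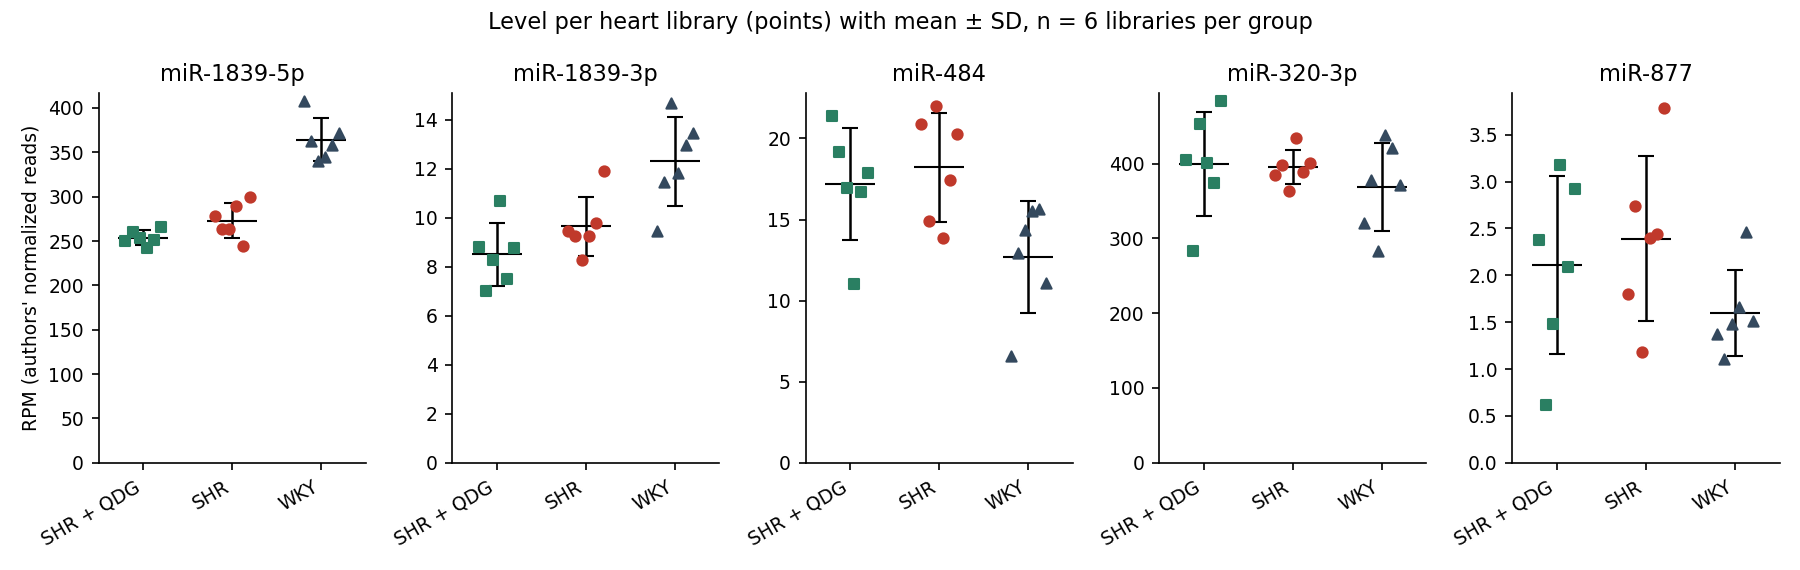
Level of each tested member in every heart library, in RPM on linear axes from 0, with QDG (SHR given QDG) left of SHR and WKY. Points are libraries and bars are the mean ± SD of 6. The QDG and SHR libraries of miR-1839-5p, at 242 to 299 RPM, all lie below the WKY libraries, at 340.2 to 408 RPM, while the groups of the other 4 members overlap.

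miR-1839-5p, the main arm of the small Cajal body RNA hairpin, was lower in both hypertensive groups than in WKY. The lowest, median and highest levels were 242, 252 and 266 RPM in QDG libraries, 244, 271 and 299 RPM in SHR libraries and 340.2, 361 and 408 RPM in WKY libraries. Every QDG and every SHR library lay below every WKY library, whereas the QDG and SHR libraries overlapped. In all, 6.83% of the tested miRNAs were lower without overlap in SHR against WKY and 4.15% in QDG against WKY. The means were 254 ± 8.34 RPM in QDG, 273 ± 19.97 RPM in SHR and 364 ± 24.4 RPM in WKY (SD, n = 6 each).

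In SHR the mean level of miR-1839-5p fell by 25.1% against WKY, a log2 fold change of -0.42 ± 0.08 (SE, limma adjusted p = 0.000326), with 6 of 6 SHR libraries below the WKY mean. In QDG it fell by 30.3% against WKY, a log2 fold change of -0.52 ± 0.08 (SE, limma adjusted p = 3.15e-05), again in 6 of 6 libraries. Without WKY replicate 1 and SHR replicate 5 the log2 fold changes were -0.35 in SHR and -0.48 in QDG against WKY (limma adjusted p = 0.00130 and 2.55e-05). It ranked 29th by p among the 410 miRNAs in the first comparison and 11th in the second. Both comparisons use the same 6 WKY libraries, so they are not separate evidence. Since whole tissue was sequenced, fewer cells of a type and less RNA per cell cannot be told apart here or in the results that follow.

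miR-1839-3p, the minor arm of the same hairpin, had lowest, median and highest levels of 7.02, 8.51 and 10.7 RPM in QDG libraries, 8.25, 9.35 and 11.9 RPM in SHR libraries and 9.46, 12.4 and 14.7 RPM in WKY libraries. All 3 groups overlapped, and these levels rest on 34 to 89 reads per library. The means were 8.50 ± 1.28 RPM in QDG, 9.64 ± 1.21 RPM in SHR and 12.3 ± 1.81 RPM in WKY (SD, n = 6 each). In QDG the level fell by 30.9% against WKY, a log2 fold change of -0.48 ± 0.13 (SE, limma adjusted p = 0.00922) with 6 of 6 QDG libraries below the WKY mean. In SHR against WKY the log2 fold change was -0.32 ± 0.13 (SE, limma adjusted p = 0.0859), which missed the threshold. Without WKY replicate 1, the WKY library lowest in this arm and highest in the other, it was -0.38 (limma adjusted p = 0.0260), and without SHR replicate 6 it was -0.37 (limma adjusted p = 0.0473). Without WKY replicate 1 and SHR replicate 5 together it was -0.39 (limma adjusted p = 0.0359), and -0.55 in QDG against WKY (limma adjusted p = 0.00276).

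No change in the balance of the arms was detected. The 5p arm took 96.8 ± 0.551% of the reads of both arms in QDG, 96.6 ± 0.349% in SHR and 96.7 ± 0.616% in WKY (SD, n = 6 each). The log2 ratio of 5p to 3p, with 1 RPM added to each, averaged 4.75 ± 0.22 in QDG, 4.69 ± 0.14 in SHR and 4.79 ± 0.28 in WKY. The difference was -0.10 in SHR against WKY (two-sided exact permutation p = 0.524), -0.03 in QDG against WKY (exact permutation p = 0.831) and 0.06 in QDG against SHR (exact permutation p = 0.561). The adjusted p over these 3 tests was 0.831 for each, by Benjamini-Hochberg on the exact permutation values, of which the smallest possible is 0.00216. Over the 18 libraries the arms correlated at r = 0.66, and at -0.24 once each group's mean was removed. These are descriptions over libraries that share the group differences, and the second rests on the small 3p counts.

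**Figure D2:**
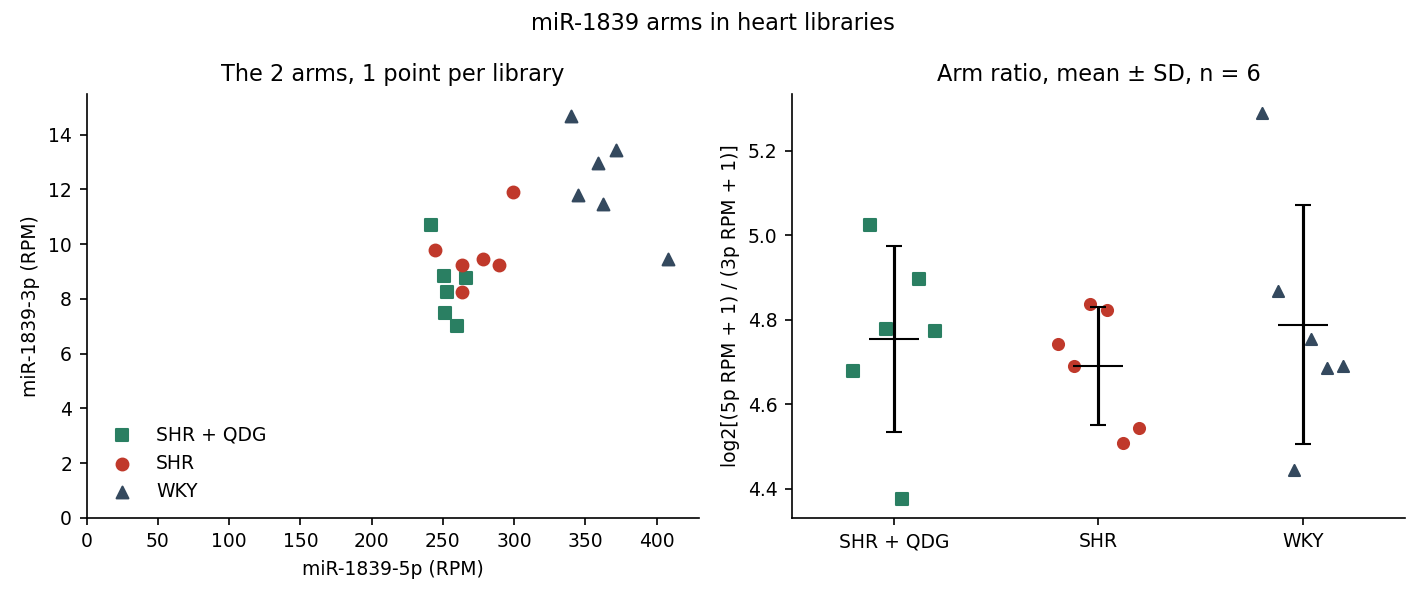
Left, miR-1839-5p (x, RPM) against miR-1839-3p (y, RPM), 1 point per library, with the WKY libraries to the right of the QDG and SHR libraries. Right, the log2 ratio of the arms per library with the mean ± SD of 6 per group, on an axis that does not start at 0; the groups overlap, and WKY replicate 1 is the highest at 5.29.

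miR-484, a capped hairpin, was higher in SHR than in WKY. Its lowest, median and highest levels were 11.02, 17.4 and 21.4 RPM in QDG libraries, 13.9, 18.9 and 22.0 RPM in SHR libraries and 6.56, 13.6 and 15.7 RPM in WKY libraries. Both hypertensive groups overlapped with WKY, and WKY replicate 1, at 6.56 RPM, was the lowest library of all. The means were 17.2 ± 3.47 RPM in QDG, 18.2 ± 3.35 RPM in SHR and 12.7 ± 3.46 RPM in WKY (SD, n = 6 each), from 43 to 150 reads per library. In SHR against WKY the ratio of means was 1.44 and the log2 fold change 0.52 ± 0.18 (SE, limma adjusted p = 0.0308), with 6 of 6 SHR libraries above the WKY mean.

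The rise of miR-484 in SHR depended on single libraries. Without WKY replicate 1 the log2 fold change was 0.36 (limma adjusted p = 0.0952), and without WKY replicate 6 it was 0.49 (limma adjusted p = 0.0658). Leaving out SHR replicate 1, 3 or 6 gave 0.48, 0.46 and 0.49, with limma adjusted p of 0.0703, 0.0687 and 0.0636. Without WKY replicate 1 and SHR replicate 5 together it was 0.37 (limma adjusted p = 0.105). In QDG against WKY miR-484 had a log2 fold change of 0.43 ± 0.18 (SE, limma adjusted p = 0.0925), with 5 of 6 QDG libraries above the WKY mean, which missed the threshold. It missed the threshold under 26 of 33 alternatives, 17 of them among the 18 that leave out a single library, and without WKY replicate 1 the log2 fold change was 0.27 (limma adjusted p = 0.228). It passed under the other 7. The adjusted p was 0.0370 with edgeR, 0.0185 with DESeq2 and 0.0435 with limma-voom, it was 0.0148 to 0.0373 with limma under 3 of 4 other scalings, and 0.0293 without QDG replicate 4, the lowest QDG library.

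**Figure D3:**
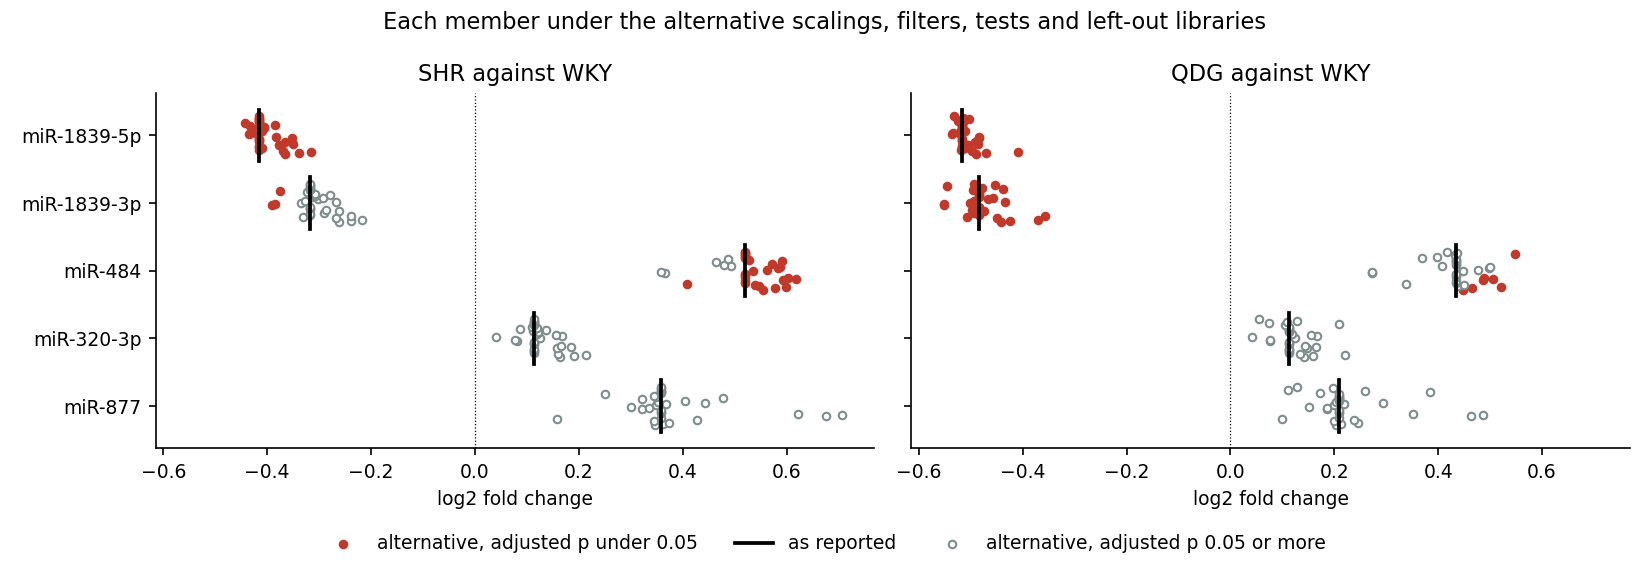
Log2 fold change of each tested member (x) against WKY under the alternative scalings, filters, tests and left-out libraries, 1 point each, with the reported value as a black bar. Filled red points have an adjusted p under 0.05. miR-1839-5p is red under all 33 alternatives in both panels, while miR-484 has both kinds of point in each panel.

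miR-320-3p, the arm kept from the other capped hairpin and the most abundant member, did not pass the test in any comparison. Its lowest, median and highest levels were 283, 403 and 483.6 RPM in QDG libraries, 364, 394 and 434 RPM in SHR libraries and 283, 375 and 438 RPM in WKY libraries. The 3 groups overlapped almost entirely. The means were 399.8 ± 69.4 RPM in QDG, 395 ± 23.0 RPM in SHR and 368 ± 58.8 RPM in WKY (SD, n = 6 each). The log2 fold change was 0.11 ± 0.12 in SHR against WKY (SE, 95% interval -0.12 to 0.35, limma adjusted p = 0.529). It was 0.11 ± 0.12 in QDG against WKY (SE, 95% interval -0.12 to 0.35, limma adjusted p = 0.558). With a library left out these values ran from 0.04 (without WKY replicate 3) to 0.17 (without WKY replicate 4) in SHR, and from 0.04 (without WKY replicate 3) to 0.21 (without QDG replicate 2) in QDG. The highest under another scaling was 0.21 in SHR and 0.22 in QDG, and none passed.

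miR-320-5p, from the capped end of that hairpin, was nearly absent from the reads. Summed over libraries, it had 0 reads beside 13095 of the 3p arm in QDG, 5 beside 13619 in SHR and 4 beside 11566 in WKY. In all it made up 0.0235% of the reads of both arms (exact 95% interval 0.0107 to 0.0446%). The 0 reads in QDG allow a share of up to 0.0282% by the same exact interval, which overlaps the intervals of SHR (0.0119 to 0.0856%) and WKY (0.00942 to 0.0885%). Overlap of intervals is not a test, and a difference between groups was not tested. These intervals cover counting error only. How well the library kit captures RNA with a capped end was not tested, so the reads do not measure this arm in the tissue. Loading of the 3p arm alone is the known behaviour of capped hairpins in mammalian cells, where the cap keeps the 5p arm out of Argonaute. By comparison the 3p arm of miR-1839, its minor one, made up 3.31% of the reads of that hairpin.

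The mirtron miR-877 was scarce. Its lowest, median and highest levels were 0.619, 2.23 and 3.17 RPM in QDG libraries, 1.18, 2.42 and 3.78 RPM in SHR libraries and 1.11, 1.501 and 2.46 RPM in WKY libraries, from 3 to 28 reads each. All groups overlapped. The means were 2.11 ± 0.945 RPM in QDG, 2.39 ± 0.881 RPM in SHR and 1.6001 ± 0.460 RPM in WKY (SD, n = 6 each). The log2 fold change was 0.36 ± 0.21 in SHR against WKY (SE, 95% interval -0.08 to 0.79, limma adjusted p = 0.259) and 0.21 ± 0.21 in QDG against WKY (SE, 95% interval -0.23 to 0.64, limma adjusted p = 0.558). With a library left out the values ran from 0.25 to 0.48 in SHR and from 0.11 (without QDG replicate 4) to 0.38 (without QDG replicate 2) in QDG, and none passed. On the scale of RPM plus 1, these values understate changes at such low levels.

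The other mirtron, miR-1224, had 1 read in the 6 QDG libraries, 4 in the 6 SHR libraries and 2 in the 6 WKY libraries. No library held more than 2 reads, which is under the 3 reads taken as the floor, so no fold change is given.

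In SHR against WKY, 2 of the 5 tested members were called, miR-484 higher and miR-1839-5p lower, where 23.2% of all 410 miRNAs were called, 8.05% higher and 15.1% lower. In QDG against WKY, 2 of 5 were called, both arms of miR-1839 and both lower, where 17.8% of all were called, 7.32% higher and 10.5% lower. The called arms share a hairpin and are not independent. In QDG against SHR, which asks about the treatment within the hypertensive strain, limma called 0 of 5 members and 0 of 410 miRNAs (0%). The unadjusted p was under 0.05 for 15 miRNAs, 3.66%, none of them a member. Calls by edgeR, DESeq2 and limma-voom in that comparison also numbered 0, with 18, 20 and 18 miRNAs at an unadjusted p under 0.05.

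In the treatment comparison, each tested member had its own 95% interval on the scale of log2(RPM + 1), not adjusted for the number of members. For miR-1839-5p in QDG against SHR the log2 fold change was -0.10 ± 0.08 (SE, 95% interval -0.27 to 0.07, limma adjusted p = 0.983). For miR-1839-3p it was -0.17 ± 0.13 (SE, 95% interval -0.44 to 0.10) and for miR-484 -0.09 ± 0.18 (SE, 95% interval -0.45 to 0.28). For miR-320-3p the interval ran from -0.24 to 0.24 and for the scarce miR-877 from -0.58 to 0.28. The SHR libraries stand in this comparison and in SHR against WKY with opposite sign, so the values of these comparisons are not independent.

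**Figure D4:**
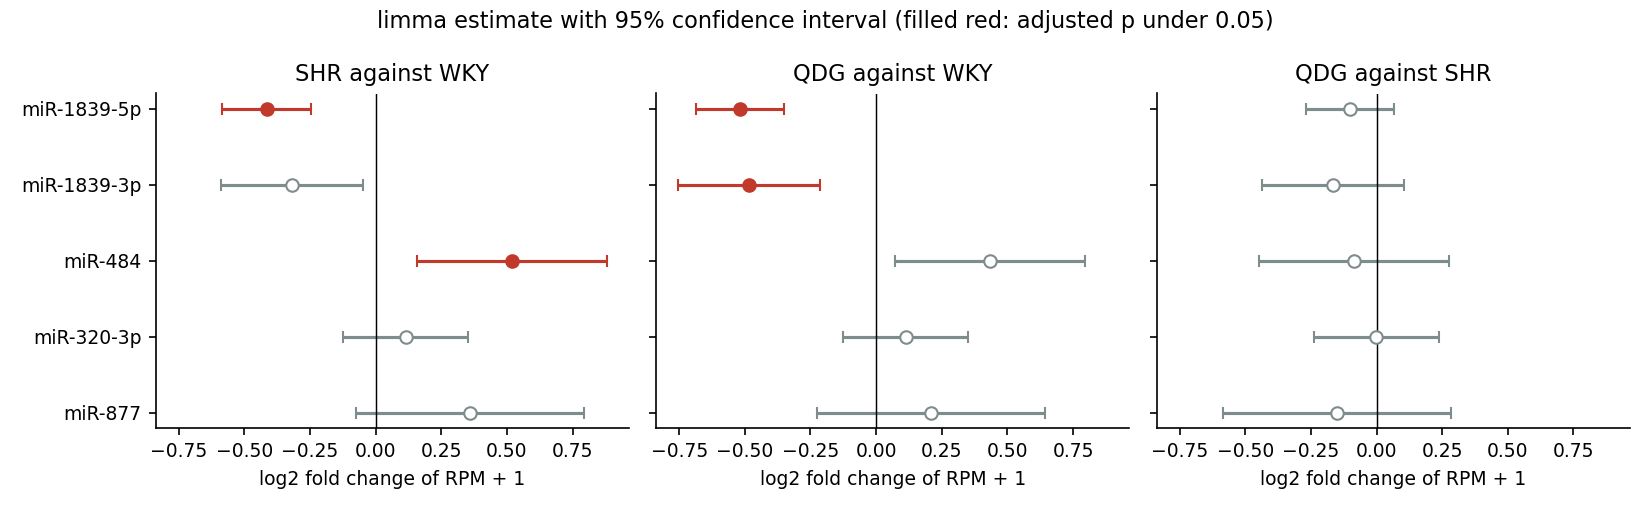
Log2 fold change of RPM + 1 (x) for each tested member with its 95% interval from limma, for SHR against WKY, QDG against WKY and QDG against SHR. Filled red points have an adjusted p under 0.05; they are miR-1839-5p and miR-484 in the left panel and both arms of miR-1839 in the middle panel, with none on the right.

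**Figure D5:**
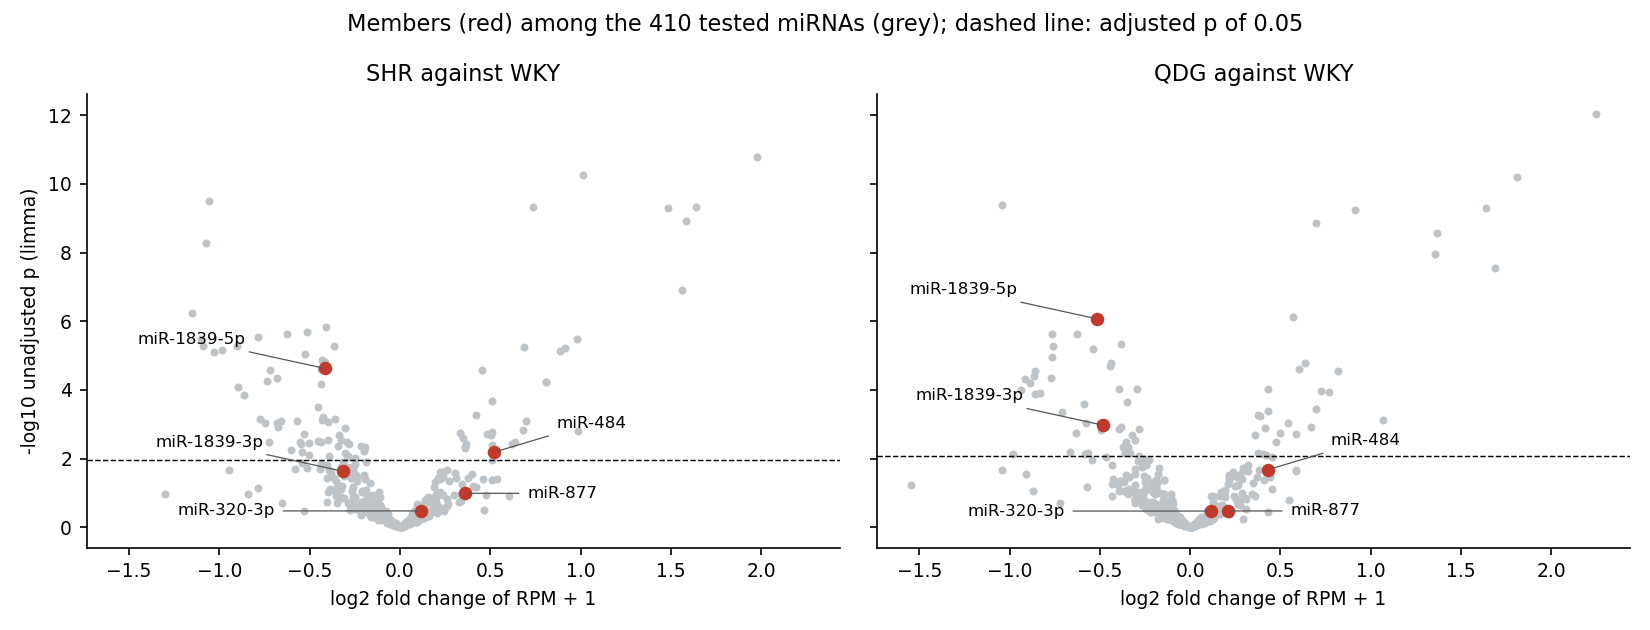
Log2 fold change of RPM + 1 (x) against -log10 of the unadjusted limma p (y) for the 410 tested miRNAs, with members in red and the adjusted threshold as a dashed line. miR-1839-5p lies above the line on the lower side in both panels, and miR-320-3p and miR-877 lie near the base.

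A list of 8 other rows named for noncanonical routes was read from the same limma fit. It held miR-451, which Argonaute 2 cuts in place of Dicer, the capped miR-344, the mirtron miR-702 and miR-664 from a small nucleolar RNA gene. Of the 4 that passed the filter, 0 were called in each comparison. Their median log2 fold change was -0.05 in SHR against WKY, -0.06 in QDG against WKY and 0.03 in QDG against SHR, beside -0.07, -0.06 and 0.02 over all tested miRNAs. miR-451-5p, the most abundant of them and also a red blood cell marker, had 473 ± 101 RPM in QDG, 446 ± 78.1 RPM in SHR and 421 ± 142 RPM in WKY (SD, n = 6 each).

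The members differed in how much they varied within a group. The coefficient of variation of miR-1839-5p was 3.28% in QDG, where counting error alone gives 2.69%, and only 4 of the 387 tested miRNAs that averaged at least 1 RPM varied less there. It was 7.31% in SHR and 6.68% in WKY, against medians over the 387 miRNAs of 15.8% in QDG, 16.5% in SHR and 18.03% in WKY. For miR-320-3p it was 17.4% in QDG, 5.82% in SHR and 15.9% in WKY, where counting error gives 2.10 to 2.28%. The spread of miR-1839-3p, at 15.1% in QDG, 12.6% in SHR and 14.7% in WKY, was close to its counting error of 12.4 to 14.6%. These spreads were not tested against each other.

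For each tested member, the 2 other miRNAs with the most similar pattern were named by Pearson's r of log2(RPM + 1) over the 18 libraries, which share group differences and scaling. For miR-1839-5p these were let-7a-5p (r = 0.90) and miR-547-5p (r = 0.88). Once group means were removed, r was 0.26 and 0.49, so most of this likeness lay between the groups. let-7a-5p averaged 8055 RPM in QDG, 7887 RPM in SHR and 10483 RPM in WKY. For miR-1839-3p they were miR-351-5p (r = 0.83) and miR-106b-3p (r = 0.77). For miR-484 they were miR-15b-5p (r = 0.87) and miR-378a-5p (r = 0.85), and r stayed at 0.80 and 0.78 within groups. For miR-320-3p they were miR-186-5p (r = 0.86) and miR-362-5p (r = 0.82), and for miR-877 miR-28-3p and miR-185-5p (r = 0.81 and 0.80). Among the members themselves, miR-320-3p and miR-877 had r = 0.61, or 0.58 within groups. The pair miR-1839-3p and miR-877 had 0.19, or 0.67 within groups, and miR-1839-5p and miR-484 had -0.61, or -0.32 within groups. The values of miR-877 rest on 3 to 28 reads per library.

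Markers of other cell types were set beside the member calls, and none was at 0 in all libraries of a group. Of the heart muscle list, 1 of 4 was called, miR-1-3p, higher by 0.74 in SHR and by 0.70 in QDG against WKY on the log2 scale. It averaged 114140 RPM in QDG, 117240 RPM in SHR and 70589 RPM in WKY, while the means of miR-133a-3p, miR-208a-3p and miR-499-5p were below those of WKY in both groups (log2 fold changes -0.19 to -0.01, not called), so miR-1-3p alone makes the higher sums of this list in QDG and SHR. Of the red blood cell list 0 of 4 were called, with summed levels of 4261 to 5727 RPM in QDG, 4373 to 6058 RPM in SHR and 3760 to 5778 RPM in WKY. Of the leukocyte list, 2 of 4 were called in QDG against WKY, miR-155-5p and miR-142-3p (log2 0.41 and 0.38), and 1 of 4 in SHR against WKY, miR-155-5p (log2 0.48). The most abundant of the 4, miR-150-5p, had -0.27 in QDG and -0.24 in SHR (limma adjusted p = 0.0815 and 0.102), and miR-142-5p had 0.01 and -0.13. The list had sums of 1143 to 1392 RPM in QDG, 1186 to 1355 RPM in SHR and 1063 to 1520 RPM in WKY. The epithelial marker miR-200c-3p, 1 of 2 on its list, was higher in SHR than in WKY (log2 0.36), while the other, miR-205, had -0.40 (limma adjusted p = 0.241). No endothelial (0 of 2), smooth muscle (0 of 2), platelet and neutrophil (0 of 1) or liver marker (0 of 1) was called in any comparison. WKY replicate 1, lowest in miR-484, was also the WKY library with the lowest sums of red blood cell, leukocyte and endothelial markers, at 3760, 1063 and 88331 RPM. Its platelet and neutrophil, epithelial and liver marker levels were the lowest of WKY too, at 31.7, 27.5 and 0.610 RPM. Its heart muscle and smooth muscle sums were not, but the members of these lists differed. It was the lowest WKY library in miR-133a-3p and miR-208a-3p, at 31041 and 1395 RPM, and the highest in miR-1-3p, at 85643 RPM. In miR-499-5p it was neither. It was the lowest WKY library in the smooth muscle marker miR-145-5p, at 1760 RPM, but not in miR-143-3p. The part of these markers in the results on miR-1839 and miR-484 was not tested.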

How the data were processed

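Small RNA was sequenced from rat heart in 18 libraries, 6 per group, with groups and replicate numbers taken from library titles. Per the labels' protocols, an NEBNext kit was used. FastQC, TopHat2 and limma appear, without versions, in the submitters' processing notes. The genome build, and how reads shared by similar miRNAs were counted, were not given in the sources used here. The authors deposited normalized reads per miRNA, treated as a signal, per the file headers. Each value was a whole multiple of 1 read per 1000000 of a library-specific divisor (RPM): of 10782 values, 10782 came within 0.01 of a whole read. Their sums, 1338745 to 1508772, exceed 1000000.

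From these values limma 3.58.1 (R 4.3.3) was fitted to log2(RPM + 1) in all 18 libraries, with a variance trend, robust moderation and no covariate, over the 410 miRNAs that reached 1 RPM in 6 or more libraries. Adjusted p is limma's by Benjamini-Hochberg over all 410. The fit was tested on simulated data. edgeR 4.0.16 (quasi-likelihood), DESeq2 1.42.0 and limma-voom on the recovered reads, other scalings, pseudocounts and filters, a replicate block and left-out libraries were alternatives. The arm ratio was compared by exact permutation (SciPy 1.17.1). Named miRNAs were all members, the 2 nearest to each by r, and called or abundant members of the marker lists. The members and lists were chosen with earlier results of these data known.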

Additional observations from a re-analysis of the deposited data

Results flagged for a closer look

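One value stood apart from its group. miR-1224 had 0.174 RPM in QDG replicate 5, which is 1 read, and 0 in the other 5 QDG libraries, so its gap to the nearest library was the whole range of the group. In all, 26 sets of 6 libraries were checked and 1 stood apart. A set with reads in only 1 library always stands apart by this rule. The chance rate of about 1 in 20 does not hold for such sparse counts. A single read is under the floor of 3 reads.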

How the results depend on the processing

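The fall of miR-1839-5p against WKY passed limma's threshold, or that of the tool used, under 33 of 33 alternatives in SHR (log2 -0.44 to -0.315, adjusted p 0.000148 to 0.0113) and in QDG (log2 -0.54 to -0.41, adjusted p 2.42e-06 to 0.00133), and that of miR-1839-3p in QDG under 33 of 33 (adjusted p 0.00254 to 0.0328). miR-1839-3p in SHR passed under 4 of 33 (adjusted p 0.0260 to 0.228) and miR-484 in SHR under 27 of 33 (adjusted p 0.00209 to 0.105) and in QDG under 7 of 33 (log2 0.27 to 0.55, adjusted p 0.0148 to 0.228). Leaving out single libraries, members called in SHR against WKY numbered 1 to 2. Counts of miRNAs called stayed within 66 to 106 in SHR against WKY and 57 to 87 in QDG against WKY. Signs turned only for values near 0 that passed no test. In QDG against SHR, miR-320-3p had 0.00668 with upper quartile scaling and -0.0595 to 0.0946 with a library left out, miR-484 -0.157 to 0.0277 and miR-877 -0.269 to 0.0255. The arm ratio difference of miR-1839 was -0.167 to 0.00216 in SHR against WKY and -0.103 to 0.0666 in QDG against WKY with 1 library left out, and 0.0386 and 0.0666 without WKY replicate 1 and SHR replicate 5 together. The cause was not tested. At a filter of 10 RPM, miR-877 gave no value.

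Same-numbered libraries were not treated as pairs in the main fit. Their deviations from group means correlated at -0.17 to 0.23 in SHR and WKY. The range was -0.13 to 0.12 in QDG and SHR, and 0.00412 to 0.20 in QDG and WKY. Differently numbered libraries were not compared, so these values cannot tell whether same-numbered libraries share a batch. With the replicate block, 93 miRNAs were called in SHR against WKY, 77 in QDG against WKY and 0 in QDG against SHR, with 2, 2 and 0 members. Under that block the arm ratio differences were -0.10, -0.03 and 0.06. miR-320-5p and miR-1224, at no more than 2 reads in a library, were too scarce for a test.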

Other observations

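The letters AGGUAG, searched on the mature strand only, occurred within the first 9 bases of 13 of 693 mature rat miRNAs (1.88%). Among these were miR-1839-5p, members of the let-7 family, and miR-196a-5p, miR-196b-5p and miR-196c-5p. The letters start at base 2 of miR-1839-5p and at base 3 of let-7a-5p, so the seeds of miR-1839-5p and let-7a-5p are shifted by a single base. Of the 13, 10 passed the filter, namely miR-1839-5p and 9 others that are all let-7 entries or miR-98-5p. The miR-196 entries did not pass. In SHR against WKY 6 of 10 were lower and 0 higher (limma adjusted p under 0.05), or 5 of 9 without miR-1839-5p, where 15.1% of all tested miRNAs were lower. In QDG against WKY 5 of 10 were lower and 0 higher, or 4 of 9 without it, where 10.5% of all were lower. In QDG against SHR 0 of 10 were called. The log2 fold change of let-7a-5p was -0.41 ± 0.07 in SHR and -0.38 ± 0.07 in QDG against WKY (SE, limma adjusted p = 5.36e-05 and 0.000134), that of let-7b-5p -0.05 ± 0.10 and -0.03 ± 0.10 (limma adjusted p = 0.775 and 0.878). This search, for letters shared with let-7, was made after the values were seen. The let-7 entries of near-identical sequence may share reads, so the 9 are not independent.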
